A study of Mus musculus with 6 samples.

Results

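The peroxins and the lipid enzymes of the peroxisome were examined in epididymal white adipose tissue, a visceral fat depot that lies along the epididymis. The 33 genes were taken by symbol from a table of 32244 genes: 8 peroxins of matrix protein import and receptor recycling, 5 peroxins of membrane assembly and division, 14 oxidation genes, 3 genes of the Abcd transporter family and 3 ether lipid genes. All are protein-coding genes, and coordinates are those of the table on GRCm38. Tissue came from mice with a knockout of Eepd1 (EKO) and from wild-type mice (WT), with 3 libraries of bulk mRNA per genotype. Both genotypes were on the C57BL/6J background and both had eaten a high-fat diet for 3 months, so no group on another diet was compared. The labels give neither the deleted part of Eepd1 nor the age of the mice, and they do not say whether replicates came from separate animals; p-values therefore measure the spread between these samples, which may be technical.

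Peroxisomes are single-membrane organelles that import folded enzymes from the cytosol. Peroxins build the organelle: one set inserts membrane proteins and lets the organelle elongate and divide, and another set carries enzymes bearing targeting signals across the membrane and returns the receptors. Inside, very-long-chain and branched fatty acids are shortened by β-oxidation and α-oxidation, hydrogen peroxide is broken down, and the first steps of ether lipid (plasmalogen) synthesis take place. In fat, peroxisomes lie close to lipid droplets and mitochondria, and in mouse liver the nuclear receptor PPARα is known to drive several of these genes, among them Ehhadh, Acaa1b and Pex11a.

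Library totals lay between 17215072 and 18330206 counts, and 16121 genes had enough counts to be tested. Levels are CPM, that is counts relative to the TMM-scaled total of their library. A count of 0 allows a level of up to 0.154 to 0.192 CPM (3 counts, counting error only). Eepd1 stood at 47.7 to 152 CPM in EKO and 192 to 304 CPM in WT, with no overlap. Its transcript was thus still counted in every EKO library, and its log2 difference of -1.23 ± 0.42 was not called (edgeR adjusted p = 0.106). The tissue carried its defining markers: none of 15 adipocyte markers was at 0 in any library, among them Fabp4, the fatty acid binding protein of fat cells, and Lpl, lipoprotein lipase. Their summed level was lower in EKO (12990 to 22480 CPM) than in WT (28240 to 39040 CPM), with 14 of 15 lower, and the lowest sum was that of EKO replicate 2. The 12 macrophage markers, led by Gpnmb and Mmp12, all stood higher in EKO (20140 to 34570 against 2236 to 7582 CPM) and the 10 endothelial markers, led by Cdh5 and Pecam1, all stood lower (597 to 1054 against 1383 to 1664 CPM). WT replicate 2 stood apart: it held 2484 CPM of testis transcripts such as Prm2 and Ldhc, against 0.354 to 128 CPM in the other 5 libraries, and the lowest macrophage sum. Hepatocyte markers, led by Cyp2e1 and Alb, were spread within both genotypes, with 9 of 15 at 0 in at least 1 library. Of 14 tested 10 stood higher in EKO (median log2 difference 0.37), while the summed levels, 9.88 to 257 CPM in EKO and 139 to 1960 in WT, followed Cyp2e1, which alone gave 1950 CPM in WT replicate 2. Each of the 10 epididymis markers in the table, among them Crisp1 and Cst8, was at 0 in at least 1 library. In bulk tissue, fewer cells of a type and less RNA per cell cannot be told apart, and the part of these shifts in the values below was not tested.

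Most of the peroxisomal genes were lower in EKO fat, but the ether lipid group was split. Of the 33 genes 32 could be tested; Hacl1, which cleaves 2-hydroxy fatty acyl-CoA in α-oxidation, had 5, 4 and 0 counts in EKO and 11, 8 and 8 in WT, and 31.1% of its exonic bases lie in another gene as well. By their fitted log2 differences 26 were lower and 6 higher, with a median of -0.46 beside 0.02 over all genes tested. For 19 genes every EKO library lay below every WT library, which held for 17.7% of all genes tested; for 3 genes, Abcd4, Agps and Far1, every EKO library lay above, which held for 25.1%. The edgeR quasi-likelihood test with Benjamini-Hochberg adjustment over all genes called 0 of the 32 at a threshold of 0.05, as it called 0% of the genes tested, and the lowest adjusted p was 0.0628. At an unadjusted edgeR p under 0.05 there were 17 lower genes (13.8% of all genes tested were lower by that rule) and 3 higher ones (18.9%). The DESeq2 Wald test on the same counts called 14 members lower, where it called 10.1% of all genes lower, and 1 higher, Far1, where it called 10.9% higher. The authors' deposited table has 5 of the 33 marked significant and down, namely Ehhadh, Acaa1b, Phyh, Abcd2 and Gnpat, beside 5.04% of the genes with a deposited adjusted p; each gene it marks has a log2 fold change of at least 1.0 in size. Without WT replicate 2, the median was -0.49, the counts of non-overlapping genes were again 19 and 3 while the shares of all genes tested were 21.4% and 31.1%, and edgeR called 0 members while it called 2.69% of all genes. Because edgeR called no gene with all 6 libraries, single genes are described by their values.

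**Figure D1:**
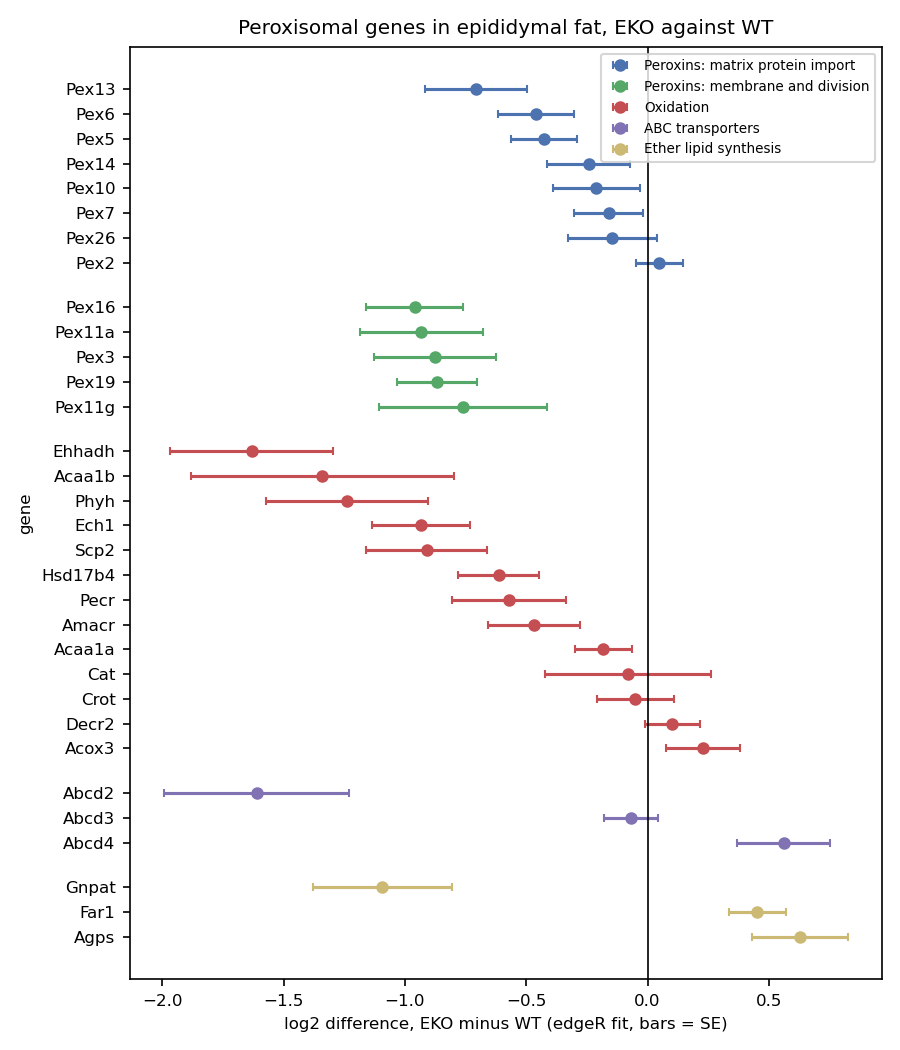
The fitted log2 difference between EKO and WT (x axis, bars are the standard error of the edgeR fit, 3 libraries per genotype) is plotted for the 32 tested genes, grouped by role. All 5 membrane and division peroxins lie between -0.96 and -0.76, while the ether lipid genes lie at -1.09 (Gnpat), 0.45 (Far1) and 0.63 (Agps).

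The role groups differed in their medians, and no test set one group against another. The median log2 difference was -0.23 for the import peroxins (7 of 8 lower), -0.87 for the membrane and division peroxins (5 of 5 lower), -0.57 for the oxidation genes (11 of 13 tested lower), -0.07 for the transporter family (2 of 3 lower) and 0.45 for the ether lipid genes (1 of 3 lower). Every EKO library lay below every WT library for 4, 5, 8, 1 and 1 genes of these groups in turn, beside 17.7% of all genes tested. Over all 13 peroxins, 12 were lower, 9 without overlap, with a median of -0.46.

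**Figure D2:**
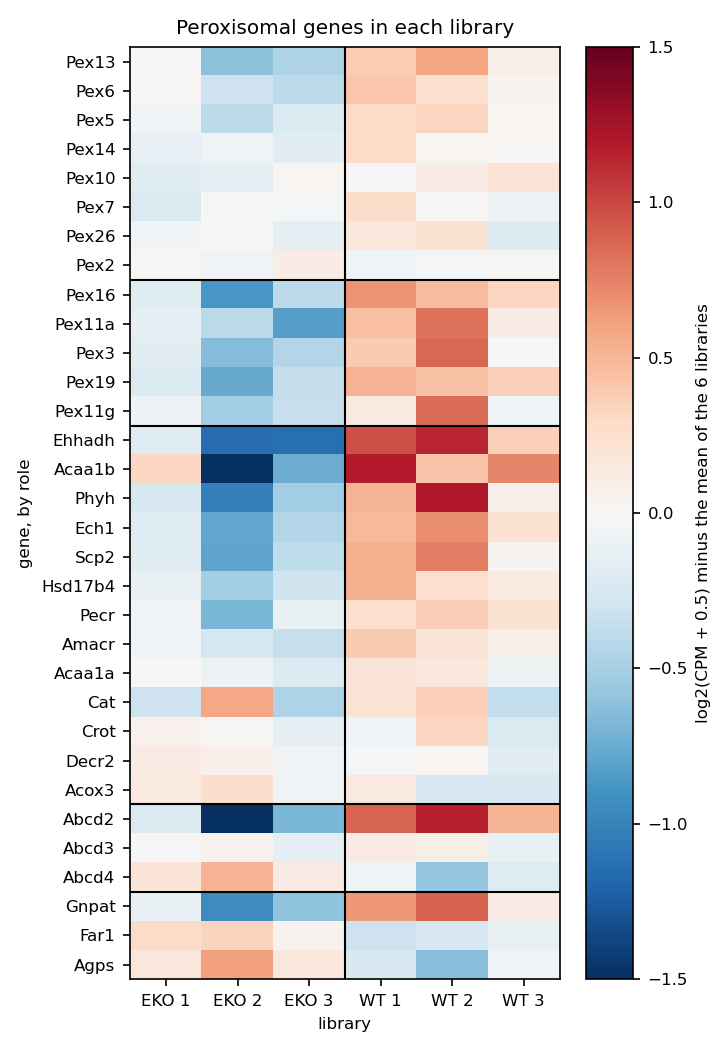
Each cell gives the log2(CPM + 0.5) of a gene in a library minus the mean of the 6 libraries (colour scale from -1.5 to 1.5), with genes ordered by role and the genotypes split by the vertical line. EKO replicate 2 is the lowest library for 15 of the 19 genes whose EKO libraries all lie below WT.

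Sequence just before the transcription start is shown for 6 genes, to set 4 of the lower ones (Ehhadh, Acaa1b, Phyh and Pex16) beside a pair of higher ones (Agps and Far1). They were chosen after their values were seen, among windows without an exonic base in GENCODE M21. The start of Ehhadh differs between annotations: 10 bases at the 3′ end of its RefSeq window lie inside the gene as the deposited table places it. Each is the 250 bases before an annotated start, read 5′ to 3′ on the gene's strand, from RefSeq on GRCm38.p6. The windows are Ehhadh at chr16:21787835-21788084 (minus strand), Acaa1b at chr9:119157094-119157343 (minus), Phyh at chr2:4918746-4918995 (plus), Pex16 at chr2:92374426-92374675 (plus), Agps at chr2:75831927-75832176 (plus) and Far1 at chr7:113513584-113513833 (plus). Capitals mark the GC box GGGCGG or its reverse complement CCGCCC.
Ehhadh: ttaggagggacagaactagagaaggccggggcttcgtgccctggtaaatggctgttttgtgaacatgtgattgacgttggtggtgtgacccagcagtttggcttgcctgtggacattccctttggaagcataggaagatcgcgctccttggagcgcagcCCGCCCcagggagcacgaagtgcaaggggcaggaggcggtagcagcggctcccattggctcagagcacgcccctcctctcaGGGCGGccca
Acaa1b: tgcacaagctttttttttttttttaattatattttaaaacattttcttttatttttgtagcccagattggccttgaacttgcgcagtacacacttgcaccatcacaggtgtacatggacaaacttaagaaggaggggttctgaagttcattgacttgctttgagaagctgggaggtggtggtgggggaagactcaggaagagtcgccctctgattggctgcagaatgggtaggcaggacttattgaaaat
Phyh: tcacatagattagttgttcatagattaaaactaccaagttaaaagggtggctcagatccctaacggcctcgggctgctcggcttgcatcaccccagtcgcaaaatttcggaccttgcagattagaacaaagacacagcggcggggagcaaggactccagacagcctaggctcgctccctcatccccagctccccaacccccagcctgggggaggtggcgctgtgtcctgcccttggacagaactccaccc
Pex16: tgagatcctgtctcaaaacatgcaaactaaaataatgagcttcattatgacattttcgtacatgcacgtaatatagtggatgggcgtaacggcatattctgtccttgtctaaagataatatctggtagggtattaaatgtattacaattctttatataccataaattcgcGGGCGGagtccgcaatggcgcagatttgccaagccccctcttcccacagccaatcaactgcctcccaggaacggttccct
Agps: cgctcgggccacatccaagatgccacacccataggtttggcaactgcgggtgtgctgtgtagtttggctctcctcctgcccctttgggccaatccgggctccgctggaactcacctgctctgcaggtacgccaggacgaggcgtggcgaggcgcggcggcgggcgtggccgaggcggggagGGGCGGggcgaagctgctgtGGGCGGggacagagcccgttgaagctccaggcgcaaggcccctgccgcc
Far1: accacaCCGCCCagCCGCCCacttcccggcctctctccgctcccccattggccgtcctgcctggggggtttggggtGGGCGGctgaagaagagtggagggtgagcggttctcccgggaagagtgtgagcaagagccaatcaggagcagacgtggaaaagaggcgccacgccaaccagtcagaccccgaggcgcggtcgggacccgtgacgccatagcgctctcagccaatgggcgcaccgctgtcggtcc
The GC content of these windows was 60.4% for Ehhadh, 41.6% for Acaa1b, 56.4% for Phyh, 42.8% for Pex16, 70% for Agps and 67.6% for Far1. The GC box, searched on both strands, occurred 2 times in Ehhadh, 1 time in Pex16, 2 times in Agps and 3 times in Far1 and was not among the letters of the Acaa1b and Phyh windows. Pex5, also lower in EKO, has further windows without an exonic base. That at chr6:124415068-124415317 held 4 GC boxes at 61.6% GC, and that at chr6:124415856-124416105 held 0 at 54.4%. No difference between lower and higher genes is therefore read from the 6 windows shown. Over all members matched in the RefSeq table (27 genes, 31 windows), 67.7% of windows held a GC box, beside 54.4% of the 14551 windows of genes tested and 32.7% of all 32851 windows. The median GC content was 60% for the members and 59.2% for windows of genes tested.

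The direct repeat of AGGTCA with 1 base between its copies, to which PPAR and RXR receptors are known to bind as a pair, was searched on both strands of the same windows. It was absent as an exact match and with 1 mismatch allowed from all 31 windows, where 0.0335% and 0.484% of all windows held it. With up to 2 mismatches it was found in 1 window, that of Cat, beside 3.24% of all windows. The match in Cat starts 204 bases before the annotated start on the gene's strand and is shown because it is the single match among the members.
Cat: AGGTCAGAGAACA
No match says only that these letters are not in these windows.

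Among the peroxins of matrix import, the docking peroxin Pex13, the receptor Pex5 and the export motor subunit Pex6 were lower in EKO, while the ubiquitin ligase and anchor subunits differed little. Pex13 (ENSMUSG00000020283, chromosome 11, 23646479 to 23665959, minus strand), a membrane component of the docking and translocation complex, stood at 74.2, 47.9 and 53.1 CPM in the EKO libraries and 96.3, 112 and 78.4 CPM in the WT libraries, given here and below in the order of replicates 1, 2 and 3. The groups did not overlap, though EKO replicate 1 came within a few CPM of WT replicate 3, and the log2 difference was -0.71 ± 0.21 (SE; edgeR adjusted p = 0.0812). Over all settings its adjusted p ran from 0.0143 with DESeq2 to 0.234. Pex5, the cycling receptor for the carboxy-terminal targeting signal, stood at 66.8, 52.1 and 59.6 CPM in EKO and 84.0, 85.9 and 70.2 CPM in WT. Its EKO libraries again all lay below WT, with the smallest gap between EKO replicate 1 and WT replicate 3 and a log2 difference of -0.43 ± 0.14 (edgeR adjusted p = 0.0933; 0.0294 with DESeq2, the lowest of a range up to 0.244). Pex6, the ATPase that helps pull the receptor back out of the membrane, had 48.8, 39.0 and 36.7 CPM in EKO and 64.7, 57.02 and 49.6 CPM in WT, a log2 difference of -0.46 ± 0.16 (edgeR adjusted p = 0.105). Here EKO replicate 1 and WT replicate 3 nearly met, at 48.8 and 49.6 CPM.

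The remaining import peroxins lay between -0.24 and 0.05 on the log2 scale. Pex14, the docking partner of Pex13, had non-overlapping groups with a small difference, averaging 10.2 ± 0.441 CPM in EKO against 12.03 ± 1.43 CPM in WT (SD over 3 libraries); 28.3% of its exonic bases overlap an antisense gene, so without strand information its counts are uncertain. Pex10 and Pex2, RING subunits of the ligase that ubiquitinates the receptor, overlapped between genotypes. Pex2 was the flattest peroxin with 38.1 ± 2.23 CPM in EKO beside 36.8 ± 1.01 CPM in WT and a log2 difference of 0.05 that became -0.04 and -0.05 with upper-quartile factors and library totals and -0.01 without WT replicate 2. Pex7, the receptor for the amino-terminal targeting signal, and Pex26, which anchors the export motor, also overlapped, at -0.16 ± 0.14 and -0.15 ± 0.18.

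The peroxins that build and divide the membrane were lower together, each without overlap between the genotypes. Pex19 (ENSMUSG00000003464, chromosome 1, 172126755 to 172136493, plus strand), the chaperone that delivers newly made membrane proteins, stood at 148, 100.5 and 133 CPM in EKO and 245, 232 and 219 CPM in WT. The lowest WT library was well above the highest EKO library, and the log2 difference was -0.87 ± 0.16, a 1.83-fold lower level (edgeR adjusted p = 0.0628; 7.24e-05 with DESeq2, the lowest of a range up to 0.229). Pex16 (ENSMUSG00000027222, chromosome 2, 92374676 to 92381217, plus strand), a membrane peroxin that recruits Pex3, stood at 52.5, 32.3 and 45.2 CPM in EKO and 95.6, 82.6 and 74.6 CPM in WT, again with a wide gap. Its log2 difference was -0.96 ± 0.20 (edgeR adjusted p = 0.0628; 0.000693 with DESeq2, the lowest of a range up to 0.229). Of its exonic bases 7.15% overlap Large2 on the other strand.

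Pex11a, which elongates the membrane before division and is induced by PPARα in mouse liver, stood at 20.7, 17.2 and 12.8 CPM in EKO and 31.4, 40.5 and 24.7 CPM in WT. Here the lowest EKO library was replicate 3, the groups did not overlap, and the log2 difference was -0.93 ± 0.25 (edgeR adjusted p = 0.0714; 0.00836 with DESeq2, the lowest of a range up to 0.229). On chromosome 7 Pex11a lies 3053 bases from Plin1, a lipid droplet coat gene of fat cells that was itself 3.25-fold lower. The ratio of Pex11a to Plin1 was 0.0287, 0.0539 and 0.0235 in EKO and 0.0173, 0.0214 and 0.0172 in WT, higher in every EKO library. Plin1 is 1 of the 15 adipocyte markers. Relative to the mean of these markers, 87.3% of all genes tested stood above WT in every EKO library. Nothing particular to this pair is therefore read from the ratio. Pex3, chosen after its values were seen, is the docking site for Pex19 on the membrane and stood at 25.5, 18.1 and 21.04 CPM in EKO and 37.7, 52.3 and 28.6 CPM in WT. WT replicate 2 was its highest library, and the log2 difference of -0.87 ± 0.25 was -0.67 without it. Pex11g, a relative of Pex11a, was lower at 2.45 ± 0.457 against 4.16 ± 1.61 CPM (SD, n = 3), a log2 difference of -0.76 that was -0.46 without WT replicate 2; 41.1% of its exonic bases overlap another annotated transcript on the other strand, so its counts are uncertain.

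**Figure D3:**
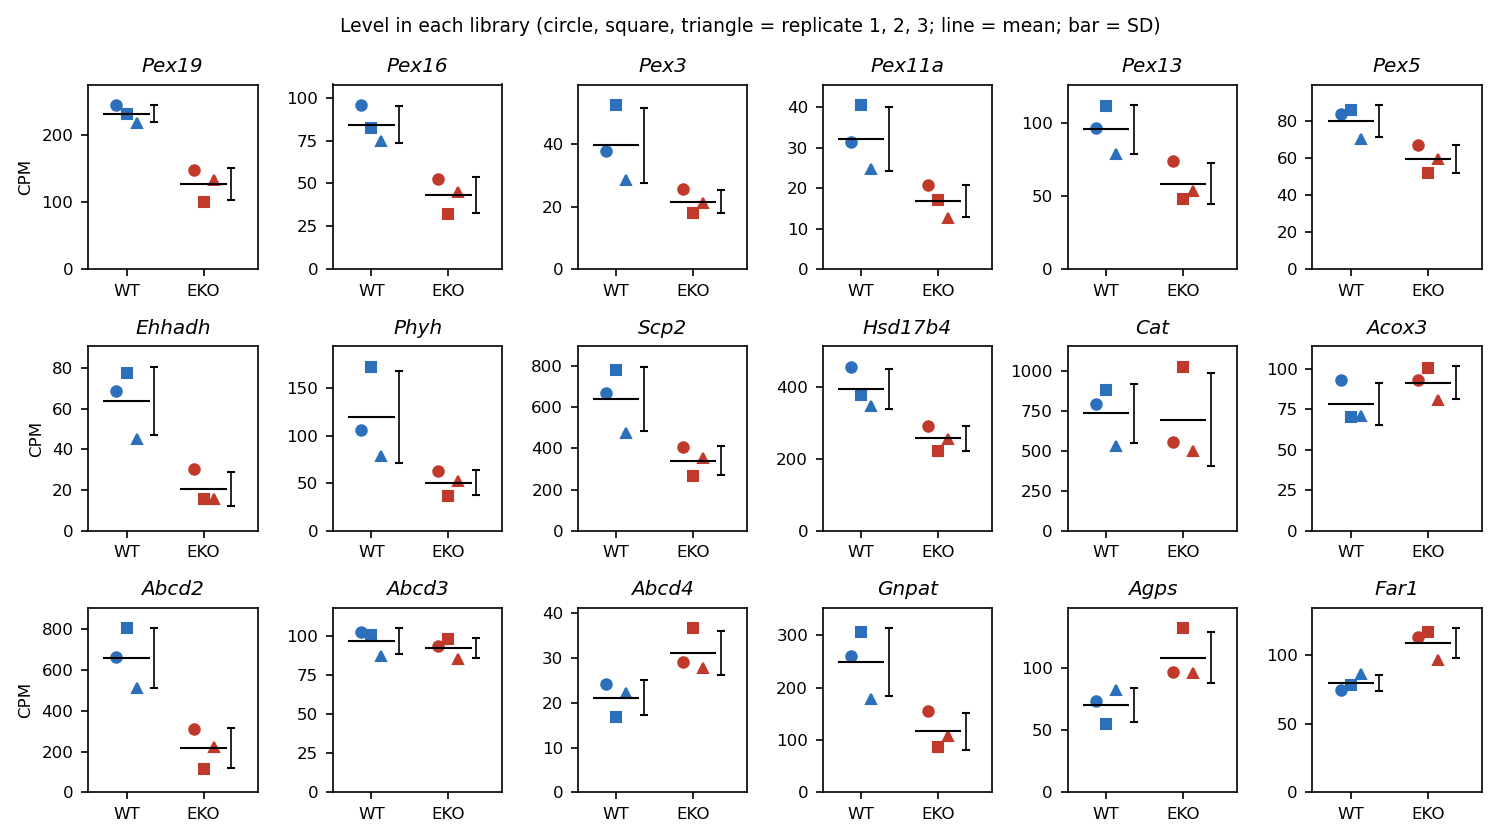
CPM in each library (y axis, starting at 0) is plotted for 18 of the genes, with WT in blue, EKO in red, circle, square and triangle for replicates 1, 2 and 3, a line at the mean and a bar for the SD. Pex19 lies at 100.5 to 148 CPM in EKO and 219 to 245 CPM in WT, while Abcd3 and Cat overlap and Far1 is higher in EKO.

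Among the oxidation genes the lower ones included both bifunctional enzymes and the α-oxidation enzyme Phyh, while catalase and the oxidase Acox3 overlapped between genotypes. Ehhadh (ENSMUSG00000022853, chromosome 16, 21761287 to 21787844, minus strand), the inducible bifunctional enzyme that hydrates and dehydrogenates enoyl-CoA in the classical β-oxidation pathway, stood at 30.4, 15.6 and 15.7 CPM in EKO and 68.8, 77.6 and 44.9 CPM in WT. Each WT library was above each EKO library, and the log2 difference of -1.63 ± 0.34 was the most negative of the 32 genes, a 3.10-fold lower level (edgeR adjusted p = 0.0628; 0.000177 with DESeq2, the lowest of a range up to 0.229). Phyh (ENSMUSG00000026664, chromosome 2, 4919019 to 4938730, plus strand), the hydroxylase that starts α-oxidation of phytanic acid, stood at 63.2, 36.6 and 52.1 CPM in EKO and 107, 173 and 79.0 CPM in WT. Its groups did not overlap, but WT replicate 2 was far above the other WT libraries, and the log2 difference of -1.24 ± 0.33 (edgeR adjusted p = 0.0707; 0.00306 with DESeq2, the lowest of a range up to 0.229) was -0.93 without that library.

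Ech1, an isomerase that prepares unsaturated fatty acids for β-oxidation and is found in mitochondria as well as peroxisomes, stood at 232.5, 154 and 196 CPM in EKO and 373, 429 and 309.6 CPM in WT. The genotypes were separated by a wide gap, and the log2 difference was -0.93 ± 0.20 (edgeR adjusted p = 0.0628; 0.000222 with DESeq2, the lowest of a range up to 0.229). The following genes were added after their values were seen. Scp2 encodes a lipid transfer protein and the thiolase for branched chains, and it stood at 406, 266 and 352 CPM in EKO and 668, 782 and 475 CPM in WT, without overlap (log2 -0.91 ± 0.25). Hsd17b4, the bifunctional enzyme for branched chains and very-long chains, differed less at 257 ± 34.8 against 394 ± 56.3 CPM (SD, n = 3; log2 -0.61 ± 0.17), also without overlap.

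The pair of thiolases, which make the last cut of β-oxidation, gave unlike values. Acaa1b stood at 62.9, 13.1 and 30.1 CPM in EKO and 116, 68.1 and 84.8 CPM in WT, with EKO replicate 1 close under WT replicate 2 and EKO replicate 2 far below the rest. Its log2 difference of -1.34 ± 0.54 moved from -0.97 without EKO replicate 2 to -2.04 without EKO replicate 1 (edgeR adjusted p = 0.146). Acaa1a, 182582 bases away on chromosome 9, overlapped at 101 ± 7.40 against 114 ± 11.4 CPM (log2 -0.18 ± 0.12). The coding sequences of the pair are each 1272 bases long and 96.5% identical, with the longest identical run 327 bases, so the split of reads between them is uncertain, and 11.4% of the exonic bases of Acaa1b overlap Dlec1 on the other strand.

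Of the remaining oxidation genes, Pecr (log2 -0.57 ± 0.23), a reductase of enoyl-CoA, and Amacr (-0.47 ± 0.19), the racemase that lets branched chains enter β-oxidation, were lower without overlap at low levels, and 11.5% of the exonic bases of Pecr overlap a non-coding gene. Crot, which passes shortened acyl chains to carnitine for export to mitochondria, and Decr2, the dienoyl-CoA reductase, overlapped at -0.05 ± 0.16 and 0.10 ± 0.11; the value of Crot was 0.06 without WT replicate 2. Acox3, an acyl-CoA oxidase for branched chains, stood at 93.0, 100.5 and 80.8 CPM in EKO and 92.9, 70.1 and 70.8 CPM in WT, a log2 difference of 0.23 ± 0.15 with overlap. Catalase (Cat), which breaks down the hydrogen peroxide the oxidases make, stood at 556, 1028 and 500.4 CPM in EKO and 793, 883 and 531 CPM in WT. EKO replicate 2, the lowest library for 15 of the 32 genes tested, was the highest for Cat, and its log2 difference of -0.08 ± 0.34 was -0.49 without EKO replicate 2 and 0.01 without WT replicate 2.

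The transporter family gave values in both directions. Abcd2 (ENSMUSG00000055782, chromosome 15, 91145884 to 91191807, minus strand), a half-transporter that carries very-long-chain and polyunsaturated acyl-CoA into peroxisomes and is abundant in fat, stood at 310.3, 115 and 223 CPM in EKO and 663, 805 and 513 CPM in WT. The groups were far apart, with EKO replicate 2 lowest, and the log2 difference was -1.61 ± 0.38, a 3.05-fold lower level (edgeR adjusted p = 0.0643; 0.000293 with DESeq2, the lowest of a range up to 0.229). Without EKO replicate 2 the log2 difference was -1.33. Abcd3, the carrier of dicarboxylic and branched acyl-CoA, stood at 93.8, 98.1 and 85.4 CPM in EKO and 103, 100.4 and 87.5 CPM in WT, overlapping, with a log2 difference of -0.07 ± 0.11. Abcd4, which despite its family name serves in lysosomal vitamin B12 transport, stood higher, at 29.0, 36.7 and 27.7 CPM in EKO and 24.3, 16.8 and 22.2 CPM in WT. EKO replicate 2 was its highest and WT replicate 2 its lowest library, and the log2 difference of 0.56 ± 0.19 (edgeR adjusted p = 0.105) was 0.36 without WT replicate 2.

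Of the 3 ether lipid genes listed, Gnpat stood lower and Agps and Far1 higher. Dhrs7b and Far2, which lie outside this list but serve the same pathway, had log2 differences of -0.57 ± 0.145 and -0.22 ± 0.385. Dhrs7b did not overlap between the genotypes and Far2 did, so the split is read for the 3 listed genes only. Gnpat (ENSMUSG00000031985, chromosome 8, 124863033 to 124890057, plus strand), which acylates dihydroxyacetone phosphate in the first step, stood at 155, 86.0 and 109 CPM in EKO and 260.2, 307 and 179 CPM in WT. Every EKO library lay below WT, and the log2 difference was -1.09 ± 0.29, a 2.13-fold lower level (edgeR adjusted p = 0.0692; 0.00252 with DESeq2, the lowest of a range up to 0.229). Agps (ENSMUSG00000042410, chromosome 2, 75832177 to 75931350, plus strand), which replaces the acyl chain with a fatty alcohol in the next step, stood at 97.0, 132.5 and 96.6 CPM in EKO and 73.4, 55.4 and 82.3 CPM in WT. Every EKO library lay above WT, with the same library pair, replicate 2 of each genotype, at the extremes, and the log2 difference was 0.63 ± 0.20 (edgeR adjusted p = 0.0918; lowest over all settings 0.0454, highest 0.323). Far1 (ENSMUSG00000030759, chromosome 7, 113513834 to 113571511, plus strand), the reductase that makes the fatty alcohol, stood at 113, 117 and 96.7 CPM in EKO and 74.8, 78.0 and 86.0 CPM in WT, again without overlap. Its log2 difference was 0.45 ± 0.12 (edgeR adjusted p = 0.0676; 0.0298 with DESeq2, the lowest of a range up to 0.245). Agps and Far1 were above WT in every library and Gnpat below it also without WT replicate 2, at 0.43, 0.38 and -0.97. Of the exonic bases of Gnpat 7.81% overlap a non-coding gene on the same strand.

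Ratios within a library do not depend on its scaling, and they were formed for pairs chosen after the values were seen, so they carry no test. The ratio of Gnpat to Agps counts was 1.60, 0.649 and 1.12 in EKO and 3.54, 5.54 and 2.17 in WT. It was lower in every EKO library, with means of 1.12 ± 0.475 and 3.75 ± 1.69 (SD, n = 3). The ratio of Ehhadh to Hsd17b4, the inducible against the other bifunctional enzyme, was 0.104, 0.0700 and 0.0614 in EKO and 0.151, 0.206 and 0.129 in WT, lower in every EKO library. For Abcd2 against Abcd3 it was 3.31, 1.18 and 2.61 in EKO and 6.46, 8.02 and 5.87 in WT, with no overlap, whereas Acaa1b against Acaa1a overlapped. Among the peroxins, the ratio of Pex16 to Pex2 was 1.38, 0.898 and 1.12 in EKO and 2.67, 2.25 and 1.97 in WT, and Pex19 to Pex5 was 2.22, 1.93 and 2.23 in EKO and 2.92, 2.71 and 3.12 in WT. Both were lower in every EKO library, the second by a smaller factor (1.37 against 2.02 for the WT mean over the EKO mean).

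**Figure D4:**
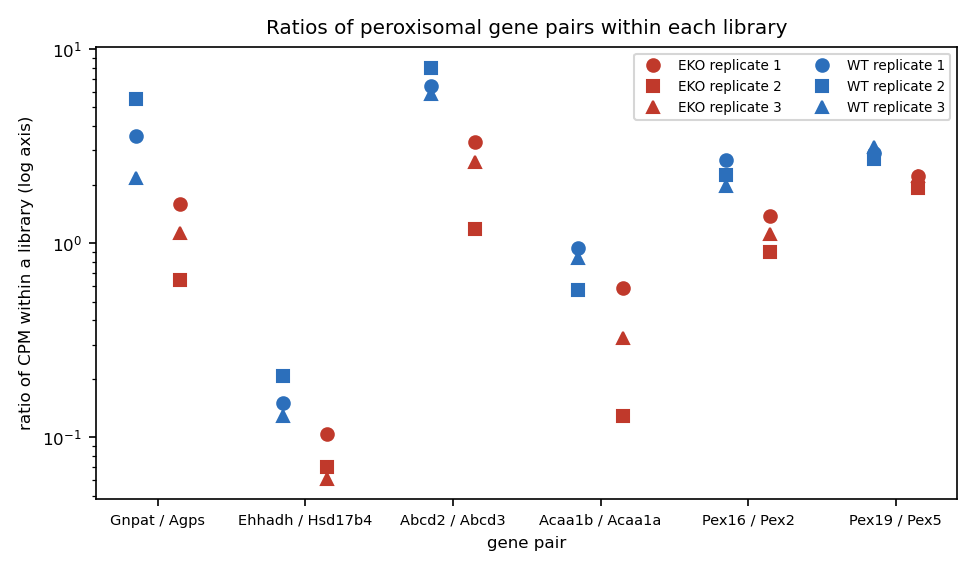
The ratio of the CPM of paired genes within each library (y axis, log scale) is plotted for 6 pairs, with WT in blue on the left and EKO in red on the right of each pair and circle, square and triangle for replicates 1, 2 and 3. The ratio of Gnpat to Agps runs from 2.17 to 5.54 in WT and from 0.649 to 1.60 in EKO.

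Levels were compared between genes per kilobase of exon. Catalase was the most abundant in WT at 281.5 CPM per kilobase, followed by Scp2 (184.5), Ech1 (162), Hsd17b4 (116) and Abcd2 (111). The same 5 genes led in EKO, with Cat at 266 and Abcd2 at 36.4 CPM per kilobase. Ehhadh ranked 12 of 33 in WT at 21.4 and 22 in EKO at 6.90 CPM per kilobase, whereas Agps ranked 23 in WT and 18 in EKO, and Far1 21 and 15. Among the peroxins, Pex19 and Pex16 had the highest levels per kilobase in WT, at 60.8 and 47.5, and Pex11g the lowest at 1.22 CPM per kilobase.

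Other genes of the organelle and its regulators were read from lists assembled by pathway. Of 48 further peroxisomal genes listed 38 could be tested, and 28 of these were lower (median log2 difference -0.39). At an unadjusted edgeR p under 0.05, where 13.8% of all genes tested were lower and 18.9% higher, there were 19 lower and 1 higher. Those with the smallest p were Eci3, an enoyl-CoA isomerase, at 0.666 ± 0.355 CPM in EKO against 5.48 ± 2.72 CPM in WT, Pxmp4, a membrane protein, at 44.4 ± 7.92 and 85.2 ± 14.4, and Lonp2, the protease of the matrix, at 96.0 ± 11.8 and 168 ± 27.0 (SD, n = 3). Of 17 mitochondrial β-oxidation genes 15 were lower, and their median was -0.59. Eci1, Hadh and Acads, which act on enoyl-CoA, 3-hydroxyacyl-CoA and short acyl-CoA, had the smallest p and stood at log2 differences of -1.31, -1.10 and -0.62, and 9 were lower and 1 higher at an unadjusted p under 0.05. Of 16 PPAR receptors, partners and cofactors, 10 were lower, with a median of -0.23, and 5 were lower at an unadjusted p under 0.05. Rxrg, an RXR partner of PPAR receptors, stood at 4.36, 2.89 and 5.03 CPM in EKO and 17.1, 17.9 and 13.9 CPM in WT, with no overlap (log2 -1.99 ± 0.26, edgeR adjusted p = 0.0628). Ppara stood at 2.60, 1.22 and 2.17 against 7.12, 8.99 and 4.31 CPM, and Pparg at 109, 72.2 and 93.9 against 151, 204 and 137 CPM, both without overlap and both lowest in EKO replicate 2. None of these lists had a member called by edgeR at an adjusted p of 0.05.

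Some of the peroxisomal lists had the same extreme libraries as the adipocyte markers. With each gene centred on its mean over the libraries, the adipocyte markers had a median log2 level of -0.20, -1.52 and -0.71 in EKO and 0.97, 1.00 and 0.58 in WT, and the membrane and division peroxins one of -0.16, -0.65 and -0.40 in EKO and 0.45, 0.81 and 0.11 in WT. In both lists EKO replicate 2 was lowest and WT replicate 2 highest. The oxidation genes were also lowest in EKO replicate 2 (-0.50) but highest in WT replicate 1 (0.39), and the import peroxins were lowest in EKO replicate 3 (-0.16) and highest in WT replicate 1 (0.28). The transporter family was lowest in EKO replicate 3 (-0.14), with EKO replicate 2 at 0.06. EKO replicate 2 was the lowest library for 15 of the 19 genes with EKO below WT (78.9%), beside 76% of the 2854 genes of the whole table with that pattern, and it was the highest library for each of the 3 genes with EKO above WT. The endothelial markers were also lowest in that library, at -0.88, and the macrophage markers highest, at 1.32.

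**Figure D5:**
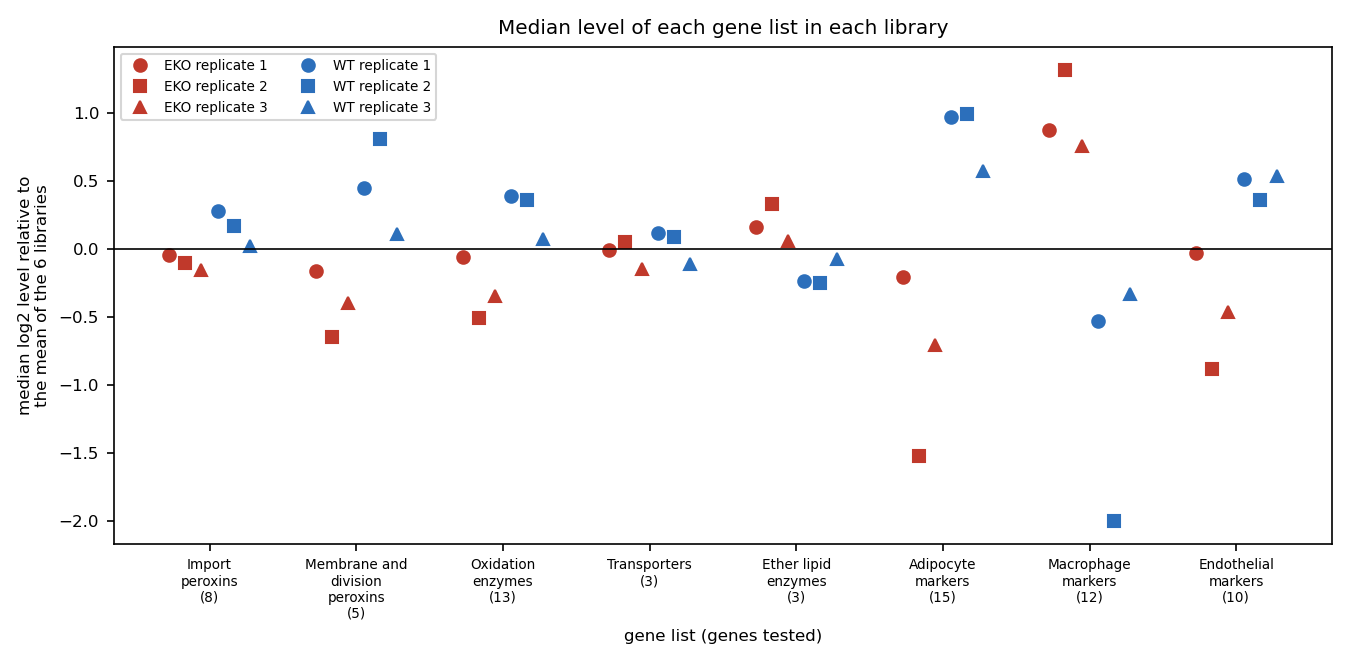
The median log2 level of each gene list relative to the mean of the 6 libraries (y axis) is plotted per library, EKO in red and WT in blue, with circle, square and triangle for replicates 1, 2 and 3 and the number of tested genes in brackets. The medians of the ether lipid and macrophage lists are higher in EKO, and those of the membrane and division peroxins and adipocyte markers lower. The ether lipid median is over 3 genes, of which Gnpat is lower. Their summed level overlaps, at 302 to 365 CPM in EKO and 347 to 440 CPM in WT.

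The mean log2(CPM + 0.5) of the 15 adipocyte markers differed by -1.87 between EKO and WT. The median of their fitted log2 differences was less low, at -1.32. Ehhadh (-1.63), Abcd2 (-1.61) and Acaa1b (-1.34) lay below that median, and the other members tested lay above it. When the mean was subtracted from each gene in each library, the difference of every member became positive by construction, since none was as low as -1.87. Of the 32 genes 29 then lay above WT in every EKO library, beside 87.3% of all genes tested, and 0 lay below, beside 0.136%. The other 3, Ehhadh, Acaa1b and Phyh, overlapped. Abcd2 differed least among the 29: relative to the markers it stood at -1.0, -0.82 and -0.84 in EKO and -1.10, -1.02 and -1.05 in WT on the log2 scale. The count for the members lies near that for all genes, so nothing particular to them is read from it, and the part of adipocyte number in these values was not tested.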

How the data were processed

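Bulk mRNA was measured in 6 libraries, 3 per genotype, grouped by the genotype in the labels. Per the labels' protocols, TRIzol RNA was made into Illumina mRNA libraries. The genome build named in the submitters' processing notes is GRCm38. The sources used here do not give the aligner, the counter or its strand setting. The authors deposited 1 table of raw read counts for 32244 genes, and beside them, per the file headers, a mean signal over the libraries, a fold change (ratio) with its log2, and p-values with and without adjustment. Only rows with an identifier beginning with ENSMUSG were kept, which gave the 32244 genes, and any rows without one were not counted.

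The members and gene lists were chosen with earlier results of these data known. Counts were fitted on the whole table with the edgeR 4.0.16 quasi-likelihood test (R 4.3.3; filterByExpr, TMM, genotype as the sole term, Benjamini-Hochberg adjusted p under 0.05), which tested 16121 genes. CPM are counts over TMM-scaled totals of the genes tested; SD is over 3 libraries. Standard errors are the log2 difference divided by the square root of F. The fits were tested on simulated counts, where a larger share of the DESeq2 calls than of the edgeR calls was false. Genes given in full are, by rule, the 3 of each role group with the smallest p, each member with EKO above WT in every library, 3 genes of each further pathway list and 2 of each marker list. Exon lengths and overlaps are from GENCODE M21, whose coordinates equal those of the table for 30 of the 33 genes. Upstream windows are from RefSeq, with those on chromosome 18 left out. Alternatives were other scalings and filters, DESeq2 1.42.0, limma-voom (limma 3.58.1) with and without quality weights, a block for the replicate number, leaving out each library and an adjusted p under 0.10; DESeq2 and non-overlap without WT replicate 2 were added after the data were seen.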

Additional observations from a re-analysis of the deposited data

How the results depend on the processing

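The count of genes called at an adjusted p of 0.05 was 0 with edgeR and moved to 3392 with DESeq2, 4101 with limma-voom and sample quality weights, 2626 with DESeq2 without WT replicate 2 and 3560 with edgeR at an adjusted p under 0.10; leaving out 1 library gave 0 to 443, the highest without WT replicate 2. For the 32 members the count was 0 with edgeR, 15 with DESeq2, 18 with quality weights, 11 with DESeq2 without WT replicate 2, 15 at an adjusted p under 0.10 and 0 with each library left out. Whether the replicate numbers pair the samples is not known. The deviations of same-numbered libraries correlated at 0.272, -0.312 and -0.355, and those of differently numbered libraries at -0.3845 to 0.454. With 3 libraries per genotype, each centred on the mean of its genotype, these values cannot settle it. With the replicate block edgeR called 0 genes and 0 members. With the block 16 members had an unadjusted edgeR p under 0.05, beside 20 without it. Without the block 13.8% of all genes tested were lower and 18.9% higher by that rule. The share of all genes with the block is not given here, so the 16 is not read against it. The cause of these shifts was not tested. Median differences of the role groups kept their sign and moved by less than the spread between libraries under every alternative run. Of 512 member values over 16 alternatives, 456 kept their direction and their side of the threshold, 44 kept their direction and passed it, and 12 changed sign, all of them of Pex2, Crot or Cat. Pex2 (0.0487) became -0.0429 with upper-quartile factors, -0.0479 with library totals and -0.0112 with DESeq2 without WT replicate 2, and with 1 library left out it ran from -0.00774 (without WT replicate 2) to 0.0800. Crot (-0.0514) became 0.0166 with quality weights and 0.0596 with DESeq2 without WT replicate 2, and with 1 library left out it ran from -0.153 to 0.0611, above 0 without EKO replicate 3 and without WT replicate 2. Cat (-0.0823) became 0.0150 with DESeq2 without WT replicate 2, and with 1 library left out it ran from -0.494 (without EKO replicate 2) to 0.111 (without EKO replicate 3). At least 10% of the exonic bases of Pex14, Pex11g, Acaa1b and Pecr are shared with a gene on the other strand, which limits counts of unstated strand; those of Hacl1 are shared with a gene on its own strand, which strand information would not separate.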
